A study of Homo sapiens with 4 samples.

Results

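Nuclear receptors are transcription factors that bind DNA through a zinc finger domain and, in many members, change activity when a small lipid-soluble ligand binds. The 44 genes described here were taken by name from a list of this family, and peaks were assigned to them when they overlapped the annotated gene body or the 5 kb on either side of it. All 44 were found among the 20163 protein-coding genes of the GENCODE annotation of GRCh37 (hg19). They comprised 5 steroid receptor genes, 3 estrogen-related receptor genes, 9 thyroid, retinoid and vitamin D receptor genes, 8 lipid, sterol and xenobiotic sensor genes, 4 clock receptor genes and 15 other orphan receptor genes.

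The peaks came from CUT&RUN, in which an antibody directs a nuclease to a chromatin protein and the released DNA fragments are sequenced. SW-13 cells, an adrenocortical carcinoma line without BRG1 or its paralog BRM, carried doxycycline-inducible V5-tagged constructs, and all samples were treated with doxycycline for 24 h and profiled with an anti-V5 antibody. One group expressed wild-type BRG1 (iBRG1), the ATPase of the SWI/SNF chromatin remodeling complex, and the other expressed BRG1 lacking the helicase/SANT-associated (HSA) domain (i∆HSA). Each construct was studied in selected clones of a stable line, so a difference between the constructs and a difference between the clones cannot be told apart. There were 2 biological replicates per construct but 1 peak list for each, and the replicate error of every value below is therefore unknown. There were 24212 peaks for iBRG1 and 25371 for i∆HSA. Both lists are larger than the peak numbers that the study reports, which are higher for iBRG1 than for i∆HSA. The files give no read counts, and the depth behind a peak is unknown.

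SWI/SNF complexes slide and evict nucleosomes, and several steroid and retinoid receptors are known to recruit BRG1 to the genes they regulate. The glucocorticoid receptor and some, but not all, other steroid receptors bind paired copies of a half-site close to AGAACA. The thyroid, retinoid, vitamin D and most orphan receptors bind copies of AGGTCA. The adrenal cortex, from which SW-13 cells derive, makes steroid hormones under the control of NR5A1 (steroidogenic factor 1).

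The windows below show the sequence at the peaks on which the account turns, which are the top peak of PGR and the centers of overlaps between the lists at NR3C1, RARA, RARB, NR6A1 and NR2F1. Except where stated, each is the + strand of GRCh37 around the center. Capitals mark matches, on either strand, to these half-sites (AGGTCA and AGAACA), to the AP-1 pattern TGANTCA or to the TEAD pattern GGAATG.
PGR peak midpoint, chr11:100962174-100962334: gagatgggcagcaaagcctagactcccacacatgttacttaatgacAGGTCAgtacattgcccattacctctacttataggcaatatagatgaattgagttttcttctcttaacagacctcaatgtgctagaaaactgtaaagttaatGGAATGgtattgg
PGR coding exon inside that peak, minus strand, chr11:100962491-100962607: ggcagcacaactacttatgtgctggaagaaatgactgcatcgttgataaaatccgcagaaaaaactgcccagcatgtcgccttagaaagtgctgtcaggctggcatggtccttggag
NR3C1 overlap, chr5:142735885-142736045: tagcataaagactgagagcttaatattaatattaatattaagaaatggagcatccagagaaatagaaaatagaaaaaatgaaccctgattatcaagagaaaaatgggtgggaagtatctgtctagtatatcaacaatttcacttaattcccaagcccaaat
RARA overlap, chr17:38471047-38471207: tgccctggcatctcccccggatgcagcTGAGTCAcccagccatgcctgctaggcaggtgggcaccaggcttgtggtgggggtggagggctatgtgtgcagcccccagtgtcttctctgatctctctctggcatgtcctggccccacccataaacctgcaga
RARB overlap, chr3:25198277-25198437: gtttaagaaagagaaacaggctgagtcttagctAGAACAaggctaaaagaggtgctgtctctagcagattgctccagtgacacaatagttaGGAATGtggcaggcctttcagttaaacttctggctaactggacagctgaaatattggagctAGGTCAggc
NR6A1 overlap, chr9:127427656-127427816: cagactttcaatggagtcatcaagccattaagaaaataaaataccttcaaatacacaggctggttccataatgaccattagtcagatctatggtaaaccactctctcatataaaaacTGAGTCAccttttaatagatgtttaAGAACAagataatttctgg
NR2F1 promoter overlap, chr5:92918527-92918687: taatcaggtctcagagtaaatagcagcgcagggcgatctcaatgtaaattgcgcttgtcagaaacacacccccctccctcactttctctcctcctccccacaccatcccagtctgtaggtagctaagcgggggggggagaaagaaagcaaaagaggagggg

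Most nuclear receptor genes held a peak in at least 1 list. An iBRG1 peak was present at 29 of the 44 (65.9%, 95% Wilson interval 51.1 to 78.1), compared with 44.0% of all protein-coding genes. An i∆HSA peak was present at 33 (75.0%, 60.6 to 85.4), compared with 49.1% of all protein-coding genes. The receptor genes were longer than most, with a median of 65441 bp against 27219 bp, and longer genes held more peaks. Among the 200 protein-coding genes nearest in length to each receptor gene, a mean of 57.6% had an iBRG1 peak and 61.3% an i∆HSA peak. Both of these values lay inside the receptor genes' intervals. The intervals cover counting error only, and no test was made over the list. The genes were chosen with earlier results of these data known, and NR1D1 and THRA share peaks. A value outside an interval therefore shows neither an excess nor a deficit.

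A peak in each of the lists was found at 27 of the 44 genes (61.4%, 46.6 to 74.3). The share was 30.0% of all protein-coding genes and a mean of 43.4% of genes of like length. Both lay below that interval, which covers counting error only. No share over all protein-coding genes was computed for the groups that follow, genes with peaks in 1 list only or in neither. PGR and NR2F2 had iBRG1 peaks without i∆HSA peaks. ESRRG, VDR, PPARA, HNF4G, NR4A3 and NR2E1 had i∆HSA peaks without iBRG1 peaks. ESRRG, VDR, PPARA and HNF4G, named here to account for every gene, each had 1 intronic i∆HSA peak with a score of 2 or 3. No peak of either list was found at NR1I2, NR1I3, NR2C1, NR2E3, NR4A2, NR5A1, RORB, RXRA or RXRG. NR5A1, the regulator of steroid synthesis genes named above, was thus without a peak in a line of adrenal origin. Of the genes of its length, 35.0% had an iBRG1 peak and 48.0% an i∆HSA peak.

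**Figure D1:**
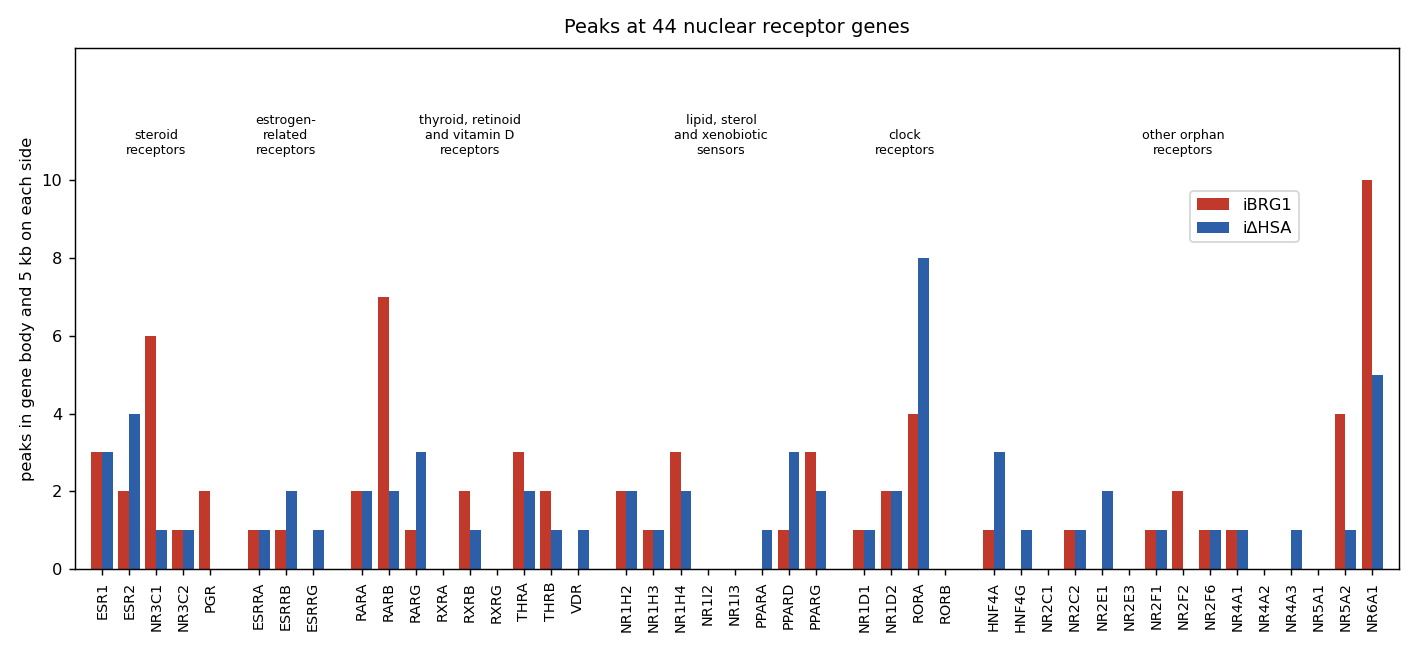
Number of iBRG1 (red) and i∆HSA (blue) peaks overlapping the gene body and 5 kb on each side of each of the 44 nuclear receptor genes, grouped by class. NR6A1 had the most iBRG1 peaks (10) and RORA the most i∆HSA peaks (8), and 9 genes had none in either list.

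In all, 70 peaks of the iBRG1 list and 63 of the i∆HSA list were assigned to the receptor genes. With the peak that each list has at both NR1D1 and THRA counted for each of these genes, the mean was 1.61 and 1.45 per gene. Genes of like length held 1.5 and 1.48. Per 100 kb of gene window, the receptor genes had 1.02 iBRG1 peaks against 1.1 over all protein-coding genes, and 0.922 i∆HSA peaks against 1.17. By the means per gene, the number of peaks at the family as a whole was close to that of genes of like length. Per 100 kb, the i∆HSA value was below that of all protein-coding genes. Single genes departed from the like-length means in both directions: 20 had more iBRG1 peaks and 21 more i∆HSA peaks than the mean of their like-length genes.

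**Figure D2:**
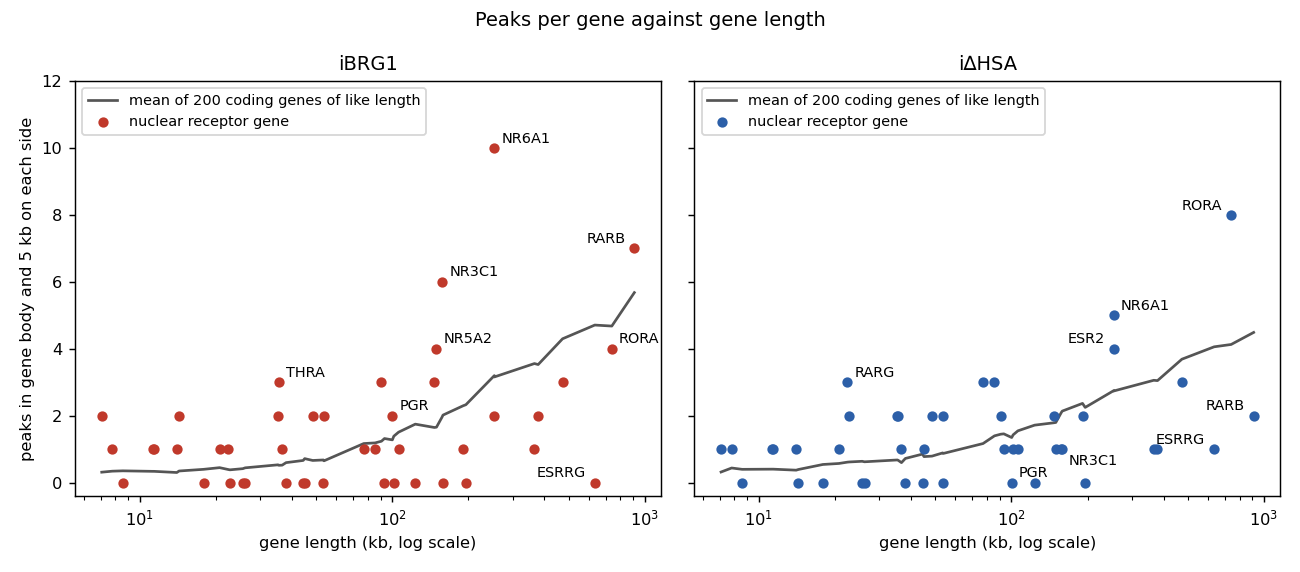
Peaks per nuclear receptor gene (points) against gene length in kb on a log scale, for iBRG1 (left) and i∆HSA (right), with the mean of the 200 protein-coding genes nearest in length (line). NR6A1 with 10 and NR3C1 with 6 iBRG1 peaks lay above the line, and ESRRG lay below it in both lists.

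Of the 70 iBRG1 peaks, 18 overlapped an i∆HSA peak by at least 1 bp (25.7%, 16.9 to 37.0), compared with 20.5% of the whole iBRG1 list. Of the 63 i∆HSA peaks, 19 overlapped an iBRG1 peak (30.2%, 20.2 to 42.4), compared with 19.6% of the whole list. That value was just below the interval, which covers counting error only. These overlapping peaks, called shared below, lay at 15 of the 44 genes (34.1%, 21.9 to 48.9), against 16.2% of all protein-coding genes and a mean of 22.7% of genes of like length. In the iBRG1 list, 8 of the shared peaks were at promoters, defined as the 1 kb on either side of an annotated transcript start, and 8 were in introns. In the i∆HSA list these numbers were 8 and 9.

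The score that the authors gave each peak is a whole number on a scale that is not stated, and it was ranked only within a list. The median score of the receptor gene peaks was 3 in the iBRG1 list, where the median of all peaks was 2, and 4 in the i∆HSA list, where it was also 4. Shared peaks had a median of 5 and list-only peaks a median of 2 in the iBRG1 list. In the i∆HSA list these medians were 4 and 3. The study's methods describe a minimum score of 5, but lower scores were common: 32.9% of the receptor gene peaks reached 5 in the iBRG1 list and 39.7% in the i∆HSA list, against 27.2% and 41.1% of all peaks. Keeping only such peaks left 14 of the 44 genes with an iBRG1 peak, 16 with an i∆HSA peak and 6 with both. Such an iBRG1 peak was present at 18.1% of all protein-coding genes and a mean of 26.0% of genes of like length. For i∆HSA these shares were 28.2% and 37.2%, and none was computed for both lists.

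**Figure D3:**
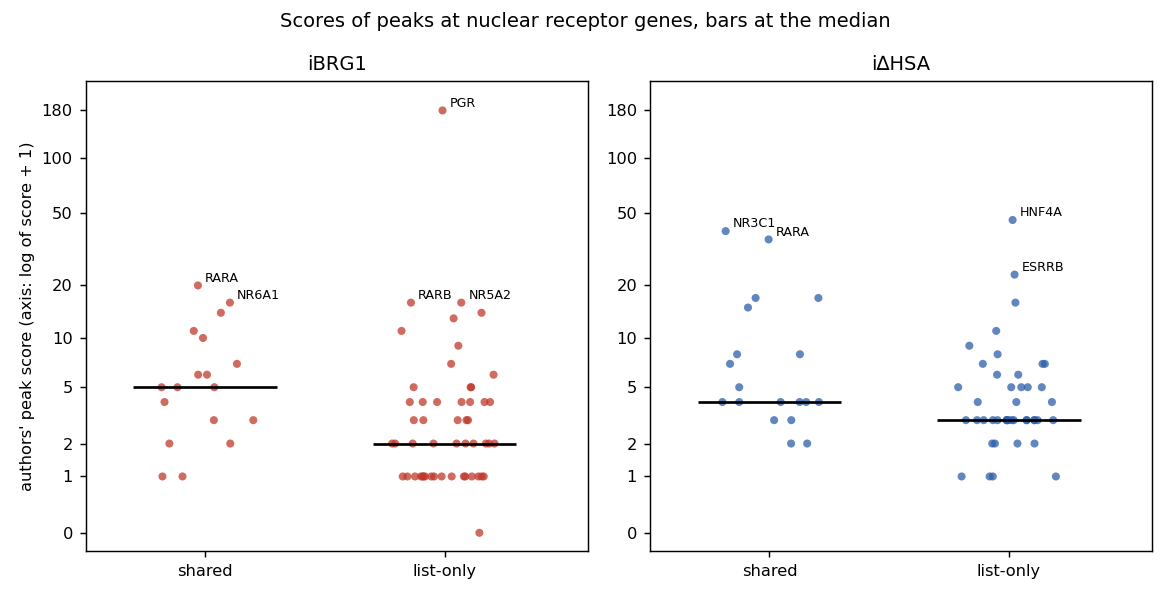
Authors' score of each peak at the nuclear receptor genes, on a log axis of score + 1, split into peaks shared with the other list and list-only peaks (bars: medians). The PGR peak, with a score of 180, stood alone in the iBRG1 list, where the next score was 20, and the highest i∆HSA scores were 46 at HNF4A, 40 at NR3C1 and 36 at RARA.

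Most of the peaks were intronic, 41 of 70 in the iBRG1 list and 37 of 63 in the i∆HSA list. Promoter peaks numbered 17 and 14. A coding exon was touched outside promoters by 6 and 4 peaks, and the others lay in non-coding or untranslated exons or in the flanks. A promoter peak was present at 15 genes in the iBRG1 list (34.1%, 21.9 to 48.9), against 18.2% of all protein-coding genes and a mean of 21.1% of like-length genes. It was present at 13 genes in the i∆HSA list (29.5%, 18.2 to 44.2), against 20.9% and 23.3%. ESRRA, NR1D1, NR1D2, NR1H2, NR1H3, NR2F1, NR4A1, RARG and RXRB had a promoter peak in each list, which is 9 of 44 (20.5%, 11.2 to 34.5) against 7.69% of all protein-coding genes. Counting only the start of the canonical transcript, the promoter counts were 7 genes in the iBRG1 list, 9 in the i∆HSA list and 5 in both. The share of all protein-coding genes was not computed for that start alone. These lower counts therefore cannot be set against the shares above. At NR1H3 the 2 promoter peaks were 15918 bp apart, and at the other 8 genes they overlapped.

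Among the 5 steroid receptor genes, all had an iBRG1 peak and 4 had an i∆HSA peak, with 14 and 9 peaks in all, but only NR3C1 had a shared peak. These genes are long, and a mean of 80.8% of genes of like length had an iBRG1 peak, 79.6% an i∆HSA peak and 36.4% a shared peak. PGR, which encodes the progesterone receptor, held the highest-scoring peak of the whole iBRG1 list. This peak, chr11:100961866-100962642, had a score of 180, and the second-highest of the 24212 peaks scored 100. It was 777 bp wide with a GC content of 35.8%, and its midpoint lay 38290 bp inside the gene from the canonical start. The peak contained the whole of coding exon 3 of 8 (117 bp, sequence above), which encodes part of the zinc finger domain. In + strand coordinates the peak started 625 bp before this exon and ended 35 bp after it. As PGR is on the minus strand, the 35 bp side is the upstream one in the direction of transcription. The window at the midpoint, which lies outside the exon, held 1 AGGTCA and 1 GGAATG. The only other PGR peak, chr11:100978321-100981500, was intronic and had a score of 1.

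No i∆HSA peak lay at PGR or near it. The nearest were 2306402 bp and 770231 bp to either side of the top iBRG1 peak, and within 500 kb on each side there were 7 iBRG1 peaks and 0 i∆HSA peaks. The i∆HSA list had no peak from position 98655464 to 101732873 of chromosome 11, a stretch of 3.08 Mb that also touched CNTN5, ARHGAP42 and TRPC6. The iBRG1 list had 26 peaks there, the most of the 1942 i∆HSA peak-free stretches of at least 0.3 Mb, and 23 such stretches were at least this long. These 26 peaks had a median score of 1.5. Apart from the PGR peak, the highest score among them was 8. In the other direction, the largest number of i∆HSA peaks in a stretch without iBRG1 peaks was 20. That stretch, on chromosome 16, was shorter, at 0.794 Mb. Its peaks had a median score of 4 and a top score of 21 on the scale of the i∆HSA list. At the PGR region, too, construct and clone cannot be told apart.

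**Figure D4:**
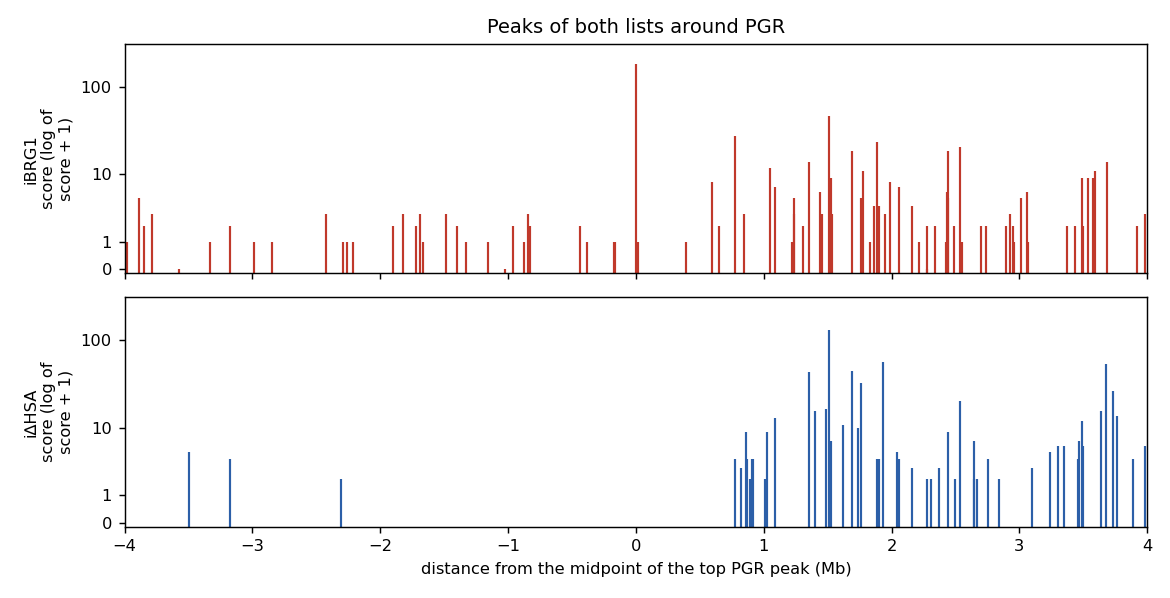
Score of every peak (log axis of score + 1) in the 4 Mb on either side of the top PGR peak, for iBRG1 (top) and i∆HSA (bottom), against the distance in Mb from that peak. The iBRG1 list continued through the region at low scores around the peak with a score of 180, whereas the i∆HSA list had no peak between 2306402 bp on one side and 770231 bp on the other.

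NR3C1 encodes the glucocorticoid receptor and had 6 iBRG1 peaks, with scores of 3, 9, 1, 4, 10 and 3 in genome order. Genes of like length had a mean of 1.96, and 4.5% of them had as many. Its single i∆HSA peak, chr5:142734959-142736972, scored 40, a score reached by 3.22% of that list. This peak lay within the iBRG1 peak chr5:142734901-142737026 (score 10, reached by 11.0% of its list), and the 2014 bp overlap was intronic, with its midpoint 47286 bp from the canonical start. The center of this overlap, shown above, held none of the 4 patterns. The iBRG1 peak with a score of 9 touched a coding exon, and no peak of either list lay at an NR3C1 promoter.

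ESR1 and ESR2 encode the estrogen receptors alpha and beta. ESR1 had 3 iBRG1 peaks scoring 1, 1 and 2, all intronic, and 3 i∆HSA peaks scoring 1, 5 and 2, the first of them at a promoter. ESR2 had 2 iBRG1 peaks scoring 2 and 3, the latter at a promoter, and 4 i∆HSA peaks scoring 6, 3, 3 and 5. None of these overlapped between the lists, and the first 2 i∆HSA peaks of ESR2 also lay in SYNE2. NR3C2, which encodes the mineralocorticoid receptor and is named to complete the class, had 1 peak per list (scores 1 and 3) that lay 190804 bp apart.

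**Figure D5:**
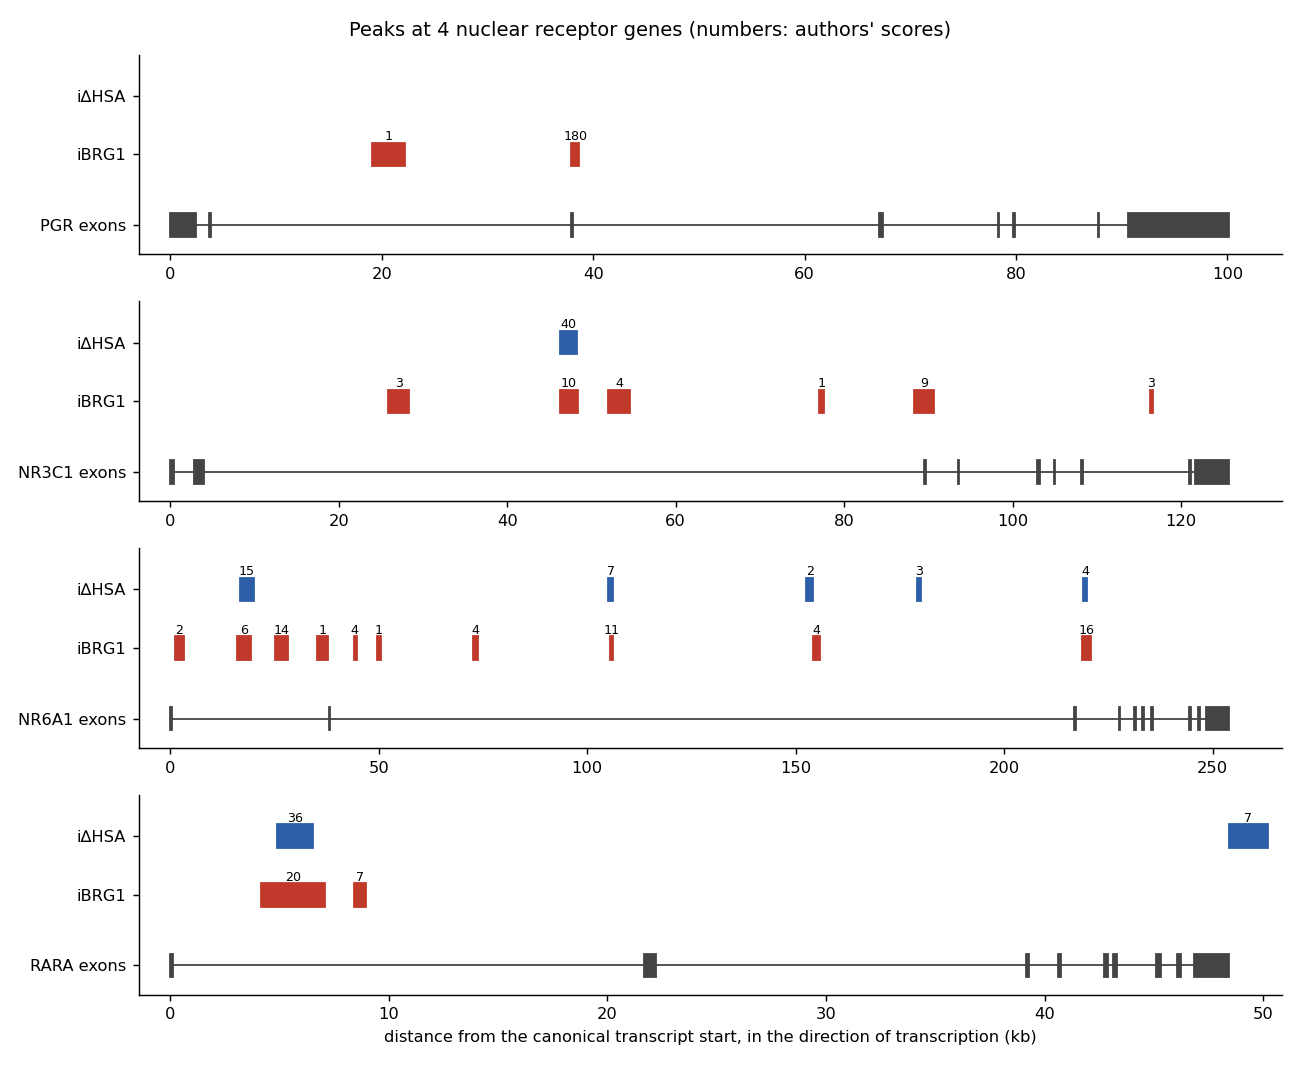
Peaks of the iBRG1 (red) and i∆HSA (blue) lists along PGR, NR3C1, NR6A1 and RARA, with the exons of the canonical transcript in gray and distance from its start in kb in the direction of transcription. The number over each peak is its score. The lists coincide at single sites of NR3C1 and RARA and at 4 sites of NR6A1, and no i∆HSA peak is drawn at PGR.

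The estrogen-related receptors are orphan receptors of energy metabolism. ESRRA had 1 promoter peak in each list, with scores of 5 (iBRG1) and 4 (i∆HSA) and an overlap of 1166 bp, and both peaks also reached the promoter of CATSPERZ. ESRRB had 1 iBRG1 peak, scoring 1, and 2 i∆HSA peaks, scoring 23 and 3. The i∆HSA peak with a score of 23, chr14:76798433-76800043, was intronic and had the lowest GC content of all the receptor gene peaks in that list, 17.9%.

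The thyroid, retinoid and vitamin D receptor genes carried shared peaks most widely, at 6 of 9 genes, and these 6 were the same genes that had a peak in each list. The shared peaks of THRA, 1 of the 6, lay only in its flanks, at the promoters of MED24 and NR1D1. That of RXRB also lay at the promoter of SLC39A7. Among genes of like length, a mean of 23.8% had a shared peak and 43.4% a peak in each list. RARA, the retinoic acid receptor alpha gene, had the highest-scoring shared peak of the iBRG1 list among the receptor genes. The iBRG1 peak, chr17:38469576-38472489, scored 20, and it contained the i∆HSA peak, chr17:38470313-38471942, which scored 36. Scores this high were held by 3.21% and 3.75% of the lists. The site was intronic, 5600 bp from the canonical start by the iBRG1 midpoint, and the window shown above held TGAGTCA. A second iBRG1 peak at the promoter of another RARA transcript scored 7. A second i∆HSA peak, also scoring 7, touched a non-coding or untranslated exon at the far end of the gene.

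RARB, the longest of the 44 genes at 910046 bp, had 7 iBRG1 peaks, scoring 1, 2, 5, 2, 16, 5 and 5. The mean for genes of its length was 5.68, and 36.5% of them had as many. It had 2 i∆HSA peaks, scoring 4 and 3, against a mean of 4.49. All of these peaks were intronic, and a single pair overlapped, by 750 bp, with scores of 5 and 4. The center of that overlap held AGAACA once, as well as 1 copy of GGAATG and 1 of AGGTCA. RARG had 1 iBRG1 promoter peak that scored 2 and spanned 3638 bp, within which lay 2 i∆HSA peaks scoring 17 and 3. Another i∆HSA peak of RARG scored 5, and 3.0% of genes of its length had as many i∆HSA peaks.

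THRB, which encodes thyroid hormone receptor beta, had a shared peak on a coding exon that ranked differently in each list. It scored 14 in the iBRG1 list, a score reached by 6.43% of peaks, and 2 in the i∆HSA list, reached by 96.7%. A second, intronic iBRG1 peak of THRB scored 3. THRA had 3 iBRG1 peaks scoring 1, 6 and 5, which 2.0% of like-length genes matched in number, and 2 i∆HSA peaks scoring 3 and 4. The peak scoring 6 was at its own promoter. The other sites were shared, and they lay at the promoters of its neighbors MED24 and NR1D1. RXRB, which at 7078 bp was the shortest of the 44, had a shared promoter peak (scores 3 and 5) that was also at the promoter of SLC39A7, and an iBRG1 peak scoring 4 at the promoter of HSD17B8. RXRB was the only retinoid X receptor gene with a peak.

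Among the 8 lipid, sterol and xenobiotic sensor genes, 5 had an iBRG1 peak and 6 an i∆HSA peak, against means of 53.8% and 59.3% of genes of like length. NR1H2, which encodes the sterol sensor liver X receptor beta, had iBRG1 peaks scoring 3 and 1 and i∆HSA peaks scoring 8 and 5. The peaks scoring 3 and 8 were shared over 1416 bp, at an annotated NR1H2 start far upstream of the canonical one. The peaks scoring 1 and 5 also lay at the promoters of NAPSA and POLD1, respectively. NR1H3 had an iBRG1 promoter peak scoring 2, also at ACP2, and an i∆HSA promoter peak scoring 3. NR1H4, the bile acid receptor gene, had iBRG1 peaks scoring 2, 3 and 1 and i∆HSA peaks scoring 4 and 4, of which the last of each list were shared over 1588 bp in an intron.

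The 3 genes for fatty acid receptors had no shared peak. PPARG, which is needed for adipocyte differentiation, had 3 iBRG1 peaks scoring 4, 1 and 1, of which the first and last were at promoters, and 2 intronic i∆HSA peaks scoring 2 and 1. PPARD had 1 intronic iBRG1 peak scoring 2 and 3 i∆HSA peaks. One of these was at the promoter with a score of 3, another was intronic with a score of 3, and the last, on a coding exon, scored 16.

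The clock receptors repress or activate genes with a daily rhythm. NR1D1, which encodes the repressor REV-ERB alpha, had 1 promoter peak in each list, scoring 5 and 4, and they overlapped by 2986 bp. As NR1D1 and THRA are neighbors, these peaks also fell in the flank of THRA. NR1D2 had iBRG1 peaks scoring 13, on a coding exon, and 7, at the promoter of another annotated transcript. Its i∆HSA peaks scored 8, near the canonical start and at the promoter of NKIRAS1, and 4, which overlapped the iBRG1 peak scoring 7 by 1155 bp.

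RORA, a long gene of 741019 bp, had the opposite balance to RARB. It had 4 iBRG1 peaks, scoring 1, 2, 5 and 1, and 8 i∆HSA peaks, scoring 7, 7, 3, 2, 3, 4, 1 and 5. Genes of like length had means of 4.68 and 4.13, and 20.5% of them had as many i∆HSA peaks. All of them were intronic and none overlapped between the lists. The nearest pair was 4696 bp apart.

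NR6A1, the germ cell nuclear factor gene and an orphan receptor gene of 254037 bp, had the most iBRG1 peaks of the 44. Its 10 peaks scored 16, 4, 11, 4, 1, 4, 1, 14, 6 and 2 in genome order, and all were intronic. Genes of like length had a mean of 3.16, 2.5% of them had as many, and only 98 of all protein-coding genes (0.486%) had 10 or more. Its 5 i∆HSA peaks scored 4, 3, 2, 7 and 15 and were also all intronic, against a mean of 2.74. Overlaps were found at 4 sites, where the iBRG1 scores were 16, 4, 11 and 6 and the i∆HSA scores 4, 2, 7 and 15. The overlap with scores of 4 and 2 was only 83 bp. The site with scores of 11 and 7 is printed above and held TGAGTCA and AGAACA. The center of the overlap with scores of 16 and 4, which is not printed, held none of the 4 patterns.

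The orphan receptor genes NR2F1 and NR4A1 had a single peak per list, shared and at the promoter. NR2F1, which encodes the developmental regulator COUP-TFI, had peaks scoring 6 (iBRG1) and 17 (i∆HSA) that overlapped by 1337 bp. The overlap center held none of the 4 patterns. NR4A1, an immediate early gene, had peaks scoring 2 and 8 that overlapped by 617 bp. In each case the i∆HSA peak ranked higher in its list: 9.57% of i∆HSA peaks scored at least 17 and 21.7% of iBRG1 peaks at least 6, and the shares at NR4A1 were 23.1% and 71.4%. NR4A3 had an i∆HSA promoter peak alone, with a score of 3. NR2F2, which encodes COUP-TFII, differed from its paralog NR2F1: it had iBRG1 peaks alone, scoring 11 in an intron and 4 in a non-coding or untranslated exon, and 4.0% of genes of its length had as many.

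NR5A2, the paralog of NR5A1, had 4 iBRG1 peaks scoring 0, 16, 1 and 1, of which the peak scoring 16, chr1:200045186-200046246, was intronic. Its i∆HSA peak scored 1. HNF4A, a regulator of liver genes, had 1 iBRG1 peak scoring 2 and 3 i∆HSA peaks scoring 9, 3 and 46. The last was the highest-scoring i∆HSA peak at any of the 44 genes, but it lay in the downstream flank, began 4652 bp from the nearest exon edge and had a GC content of 25.8%. NR2E1, a neural stem cell regulator, had i∆HSA peaks scoring 6, at the promoters of NR2E1 and OSTM1, and 11, on a coding exon. NR2C2 had an iBRG1 promoter peak scoring 1 and an i∆HSA peak scoring 3 in the downstream flank. NR2F6 had an iBRG1 promoter peak scoring 4 and an i∆HSA peak scoring 4 at the promoter of OCEL1.

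Some of these peaks also lay at neighboring genes. The promoter of another protein-coding gene was touched by 7 of the iBRG1 peaks and 8 of the i∆HSA peaks. Without them, a peak was present at 25 genes in the iBRG1 list, 28 in the i∆HSA list and 21 in both. Such peaks were not removed for all protein-coding genes or genes of like length. These counts therefore cannot be set against the shares given above. Peak ends were also measured against exon edges. Within 5 bp of an exon edge lay an end of 2 iBRG1 peaks and 1 i∆HSA peak, and over the whole lists this was true of 1.04% and 1.2% of peaks. The ends of the top PGR peak were 625 bp and 35 bp from the nearest exon edge.

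The patterns known to be bound by nuclear receptors were searched on both strands within 100 bp of each peak midpoint. AGGTCA was found in 12.9% of the receptor gene peaks of the iBRG1 list and 11.1% of those of the i∆HSA list, close to the 11.7% and 11.3% of all peaks. AGAACA was found in 15.7% of the iBRG1 peaks, against 15.9% of all. In the i∆HSA list it was found in 16 of 63 peaks, or 25.4%, against 13.6% of all. TGANTCA, bound by AP-1, was found in 20.0% and 14.3%, against 13.1% and 9.59% of all peaks. GGAATG, bound by TEAD factors, was found in 8.57% and 14.3%, against 12.2% and 10.1%. These are matches to letters, and counts of 6 to 16 peaks stand behind each share.

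Other genes of the same pathway were taken from 3 further lists. Of 20 coregulator genes, 12 had an iBRG1 peak, 12 an i∆HSA peak and 10 both, and 6 had a shared peak. These shares, 60.0%, 60.0%, 50.0% and 30.0%, stood above those of all protein-coding genes given above but beside means of 63.6%, 65.8%, 49.5% and 25.2% of genes of like length. In the iBRG1 list TBL1XR1 had a peak scoring 16 and NCOA2 a peak scoring 13, and the top i∆HSA scores were 35 at NCOR1, 29 at NSD1 and 18 at TBL1XR1. NCOR1 and TBL1XR1 belong to the corepressor complexes of unliganded receptors. Of 20 classical target genes, 12 had an iBRG1 peak, 14 an i∆HSA peak and 7 both, and 2 had a shared peak, or 60.0%, 70.0%, 35.0% and 10.0%. The means for genes of like length were 45.6%, 51.5%, 31.7% and 15.6%. FKBP5, a glucocorticoid-induced chaperone gene, had the top iBRG1 score of 25, followed by MYLIP with 14 and SGK1 with 11. The i∆HSA list was led by STRA6 with 23, KLF9 with 21 and PER1 with 12. Of 14 steroid synthesis genes, 4 had an iBRG1 peak, 2 an i∆HSA peak and 1 both, and 9 had none. The shares of 28.6%, 14.3% and 7.14% stood beside means of 41.9%, 48.8% and 26.8% of genes of like length. CYP19A1 (aromatase) led each list, with scores of 8 and 5.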

How the data were processed

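CUT&RUN was profiled in 4 samples, 2 biological replicates of iBRG1 and 2 of i∆HSA, grouped by their titles. Per the submitters' processing notes, the authors used cutadapt, Bowtie2, Picard, SAMtools and MACS2 2.2 with the hg19 build. The methods also name removal of control peaks and a minimum score of 5, but lower scores remain. The deposited files are 1 peak list per construct, each with the authors' score in whole numbers on a scale not stated. Whether replicates were pooled is not stated, and controls were not analysed here. Positions are 1-based on GRCh37, and 0 peaks ended beyond a chromosome. The reference genome and the GENCODE 44 annotation mapped to GRCh37 supplied sequences and gene models, whose outermost transcripts set the gene body.

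Overlap with 44 gene windows (body and 5 kb on each side) was computed with Python 3.11.15, pandas 2.3.3, numpy 2.4.6, scipy 1.17.1 and pysam 0.24.0, tested on simulated peaks, and plotted with matplotlib 3.10.9. A peak was placed in the order promoter (1 kb), coding exon, other exon, intron, flank. With 1 list per construct no test was possible, and shares carry 95% Wilson intervals for counting error. Members and lists were chosen with earlier results of these data known. Genes were described when they had a promoter or shared peak, one of the 10 highest scores or one of the 5 highest peak counts in a list, with PGR, NR5A1 and NR3C1 in any case, and genes without peaks by name. In the other lists the 3 genes with the top scores per list were named, except for an item that is not reported here. Alternatives changed the window, promoter, overlap, score minimum, gene model and motif window.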

Additional observations from a re-analysis of the deposited data

How the results depend on the processing

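Requiring a score of at least 5 lowered most counts: 14 genes then had an iBRG1 peak, 16 an i∆HSA peak and 6 both, from 23 and 25 peaks. Genes of like length then had a peak in 26.0% and 37.2% of cases, and all protein-coding genes in 18.1% and 28.2%. Promoter peaks remained at 6 and 7 genes and in both lists at 2, and the shared percentage of i∆HSA peaks was 20. At this minimum, no share over all genes was computed for the promoter counts or for genes with both. At or above the list's median score, 34 i∆HSA peaks were left, at 22 genes in place of 33. With midpoints within 500 bp in place of any overlap, 15.7% and 17.5% of peaks were shared. No share over all peaks was computed for this definition or for peaks scoring at least 5. These shared percentages therefore cannot be set against those of the whole lists given above. With the canonical transcript alone, a choice made after seeing the data, as was the removal of peaks at other promoters, a promoter peak was left at 7 genes in the iBRG1 list and at 5 in both lists. Neither choice was applied to all protein-coding genes, so no like share stands beside these counts. Searching 250 bp on each side raised the motif shares to 24.3% and 25.4% (AGGTCA), 28.6% (AGAACA, iBRG1), 27% (TGANTCA, i∆HSA) and 28.6% and 30.2% (GGAATG). The shares in all peaks were then 27.2% and 26.3% (AGGTCA), 34.7% (AGAACA, iBRG1), 21.0% (TGANTCA, i∆HSA) and 27.9% and 23.2% (GGAATG). The share of AGAACA in i∆HSA peaks was 34.9% at this width, against 30.4% of all peaks. That of TGANTCA in iBRG1 peaks was 30%, close to the 28.3% of all peaks. The other values, 42 with that count of 22 and the last-named shares, moved by at most 1.5 times or stayed within their interval. With 10 kb flanks, NR2C1 and NR4A2 gained iBRG1 peaks, and NR2C1 and NR2E3 gained i∆HSA peaks.

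No paired analysis was possible because the lists carry no value per replicate, and leaving out a replicate was not possible either. Depth is unknown, so a gene without a peak is not shown to lack binding.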
